A study of Mus musculus with 12 samples.

Results

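The genes described here encode the proteins that take up long-chain fatty acids, activate them and burn them by beta-oxidation. A list of 39 genes was drawn up by known function, not by measured values, but with earlier results of these data known. It was matched by symbol. The count table held 38 of the 39 among its 15113 genes, and 37 had enough reads to test. Cpt1b is not analysed here. Ppara was listed but too low to test.

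A fatty acid that enters the cell is first joined to coenzyme A by an acyl-CoA synthetase, and an acyl-CoA thioesterase can undo that step. Long acyl chains then cross into the mitochondrion through the carnitine shuttle, whose first enzyme, carnitine palmitoyltransferase 1, sets the pace of the pathway. In the matrix, a dehydrogenase, a hydratase, a hydroxyacyl dehydrogenase and a thiolase act in turn to shorten the chain, and the electrons pass through electron transfer flavoprotein to ubiquinone. In skeletal muscle these steps supply much of the energy at rest, and the nuclear receptors PPARα and PPARδ switch many of their genes on.

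C2C12 is a mouse myoblast line whose cells fuse into myotubes once serum is lowered. All the cells compared came from this single line and were labelled as fully differentiated myotubes. One group of 6 libraries came from myotubes given 20 µM BAM15, a protonophore that uncouples respiration from ATP synthesis, in DMSO for 16 h, and the other group of 6 came from myotubes given the vehicle for the same time. The labels do not say whether the libraries of a group came from separate cultures, so p-values measure the spread between libraries, which may be technical.

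Between 13983725 and 18866728 reads per library were counted on genes, and the 38 genes took 0.257 to 0.290% of them in the BAM15 libraries and 0.296 to 0.310% in the vehicle libraries. The 3′ tag method gave about 1 read per captured transcript, so a count did not scale with transcript length. Normalized counts below were scaled to a common library size and are given as mean ± SD (n = 6). Markers of the myotube were abundant in both groups. Their summed levels were 26567 to 28920 CPM in vehicle and 25177 to 31863 CPM in BAM15 libraries. CPM are reads scaled to the library total over tested genes times the normalization factor of that library. Of 13 markers, 2 (15.4%) were higher and 5 (38.5%) lower after BAM15. The threshold was an adjusted p below 0.01 in the edgeR test described further on. Over all tested genes 22.0% were higher and 20.3% lower. Of 9 markers of undifferentiated myoblasts, some of them genes of cell division, 6 were lower and 1 higher. The higher one was Myf5, at 148 ± 39.7 in vehicle and 479 ± 260 in BAM15 libraries (log2 1.69, adjusted p = 0.00144). The summed level of the 9 was 402 to 467 CPM in vehicle and 184 to 225 CPM in BAM15 libraries. Of 4 fibroblast and matrix markers tested, 3 were lower, with sums of 1448 to 1658 CPM in vehicle and 1064 to 1289 CPM in BAM15 libraries. Of 5 adipocyte markers, the 1 present in the count table, Fabp4, reached at most 0.172 CPM. The part of these marker differences in the results below was not tested, and in bulk libraries fewer cells of a type and less RNA per cell cannot be told apart.

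Acot2 and Acot1 sit side by side on chromosome 12 and encode nearly the same enzyme, and the main result concerns the former alone. Acot2 lies at chr12:83987861-83993873 on the plus strand (GRCm38) and Acot1 at chr12:84009490-84018371, 15617 bases downstream. Their coding sequences (1359 and 1257 bases) were 95.3% identical over 1236 aligned bases. Not all of the Acot1 coding bases aligned. The Acot2 coding sequence starts with 123 bases that Acot1 lacks and that encode a leader directing the protein to mitochondria. These bases are in capitals in the first line below, read 5′ to 3′ from the first codon, with the matching start of Acot1 beneath.
Acot2, coding bases at chr12:83987902-83988084: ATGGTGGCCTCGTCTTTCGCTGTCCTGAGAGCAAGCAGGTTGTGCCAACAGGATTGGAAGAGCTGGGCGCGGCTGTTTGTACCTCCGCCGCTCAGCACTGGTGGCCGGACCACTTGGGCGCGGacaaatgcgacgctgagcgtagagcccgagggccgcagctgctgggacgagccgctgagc
Acot1, coding bases at chr12:84009510-84009569: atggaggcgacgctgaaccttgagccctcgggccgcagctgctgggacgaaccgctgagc
Reads of this method fall near the 3′ end, and there the pair were told apart. Over the last 400 bases of the transcripts they were 56.6% identical across 350 aligned bases, and no run of 50 bases was shared between them. Of the 50-base windows at the Acot2 end, 0.57% also occur in the gene model Gm13016.

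The bases upstream of the Acot2 start and those upstream of Echs1, the most clearly raised enzyme of the beta-oxidation spiral, are shown next. Echs1 holds a match to the motif named below. So does Fabp3, which did not pass the edgeR test (log2 −0.13, adjusted p = 0.253) and is not shown. Acsl3, Slc27a4 and Acat1 changed more in size and are not shown. The sequences are those of RefSeq on GRCm38.p6, and capitals mark a match to TGATGNAA, the composite element bound by ATF4 with C/EBP proteins.
Acot2, chr12:83987611-83987860, plus strand: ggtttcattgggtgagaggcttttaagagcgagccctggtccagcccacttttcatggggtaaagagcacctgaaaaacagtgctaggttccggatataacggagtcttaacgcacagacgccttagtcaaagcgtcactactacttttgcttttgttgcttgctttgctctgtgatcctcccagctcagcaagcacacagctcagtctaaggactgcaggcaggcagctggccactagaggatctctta
Echs1, chr7:140116422-140116671, minus strand: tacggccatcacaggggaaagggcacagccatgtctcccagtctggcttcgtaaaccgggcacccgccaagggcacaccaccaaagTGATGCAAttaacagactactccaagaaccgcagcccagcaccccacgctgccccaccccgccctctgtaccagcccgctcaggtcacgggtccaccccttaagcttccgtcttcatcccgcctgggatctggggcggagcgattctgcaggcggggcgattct
Promoter windows running from 250 bases before to 50 bases after the start were held for 32 of the 38 genes (35 windows). TGATGNAA was found on either strand in 2 of them, those of Echs1 and Fabp3 (5.71% of windows), against 3.97% of the 32851 windows of all genes. The direct repeat with 1 spacer base that PPARs bind was found in 0 of the 35 windows and in 0.0396% of all windows. TCAAGGTCA, read by the estrogen-related receptors, was likewise in 0 windows here and in 0.423% of all. TCACNCCAC, a sterol response element, was found in the Acsl1 window only (1.24% of all windows), and the palindromic NRF1 element in those of Etfdh, Etfb and Ppara (4.60% of all windows). No window of Acot2 or Acsl3 held any of the 5 motifs. These are matches of letters, not measured binding.

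BAM15 raised 1 gene of the pathway strongly, and most of the others did not pass the test. Counts were fitted with the quasi-likelihood model of edgeR, and p-values were adjusted by the method of Benjamini and Hochberg over all tested genes. At an adjusted p below 0.01, 4 of the 37 genes were higher after BAM15 (Acot2, Cpt1a, Echs1 and Acaa1a), where 22.0% of all 12730 tested genes were, and 5 were lower (Acsl3, Slc27a4, Acat1, Hadhb and Acot7), against 20.3% of all genes. The other 28 did not pass. As a share of the 37 this was 10.8% higher and 13.5% lower, or 24.3% in either direction, against 42.3% of all genes. Scaled by library size alone, without normalization factors, 3 were higher and 11 lower. With a base mean above 50 and a change above 2-fold asked for as well, Acot2 alone passed, against 7.28% of all tested genes (3.70% higher and 3.58% lower). The median log2 fold change was −0.10 over the 37 genes and 0.02 over all tested genes, with 22 values below 0 and 15 above.

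**Figure D1:**
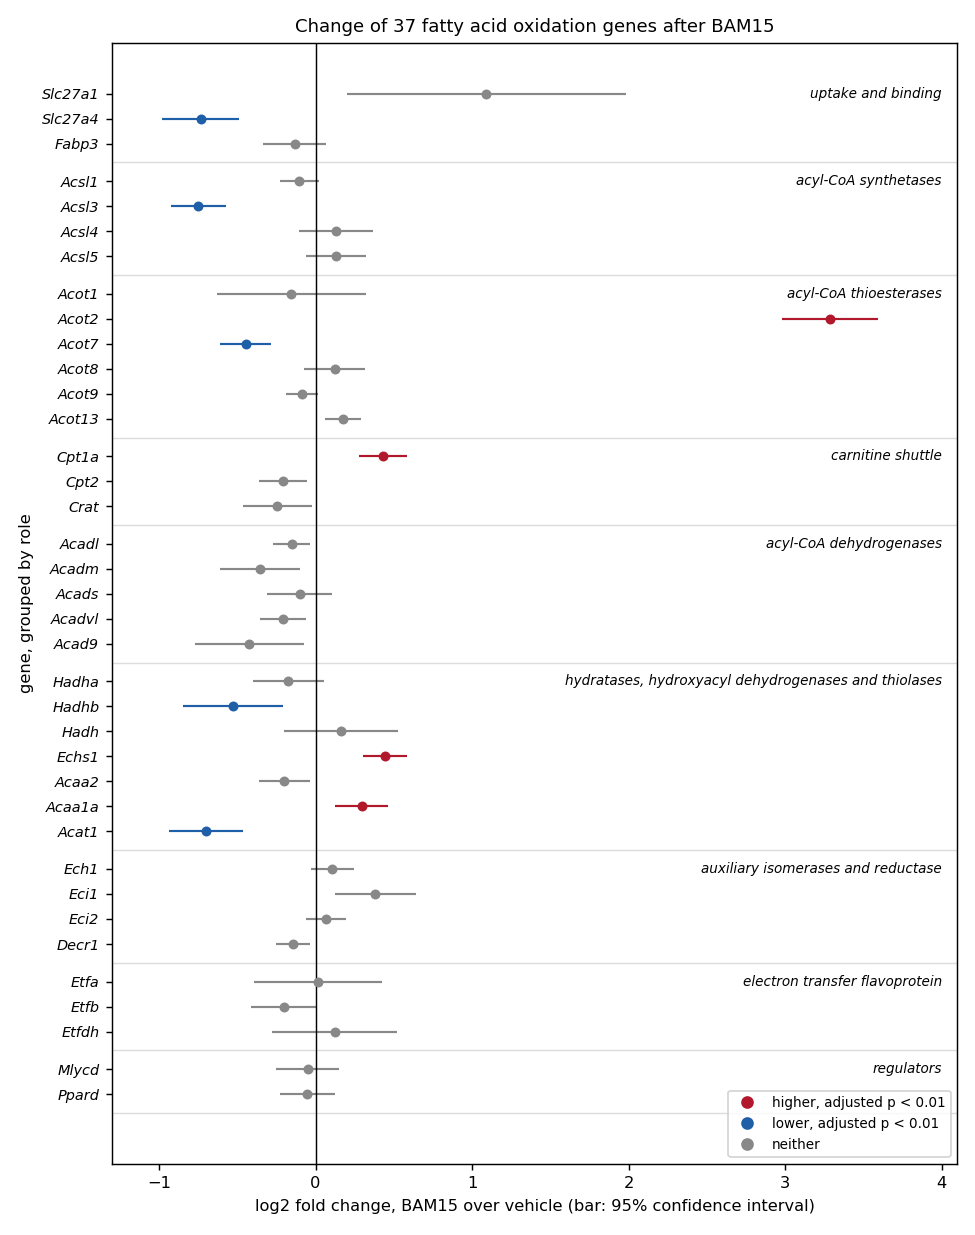
Log2 fold change (BAM15 over vehicle) of each of the 37 tested genes with its 95% confidence interval, grouped by role; red and blue points passed an adjusted p below 0.01. Acot2 stands at 3.28, and every other gene lies between −0.75 and 1.09.

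The size of change was also smaller than usual in these libraries. The median size of the log2 fold change, its sign dropped, was 0.17 over the 37 genes. Over all tested genes it was 0.32, and 0.30 over the 11263 genes expressed above the lowest of the 37. A change beyond 0.5 was seen for 6 of the 37 genes (16.2%) and for 33.1% of all. The libraries of the groups did not overlap for 3 genes higher after BAM15 (17.1% of all tested genes) and for 4 genes lower (17.0% of all; 34.2% in either direction), namely Acot2, Cpt1a and Echs1, and Slc27a4, Acsl3, Acot7 and Acat1.

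**Figure D2:**
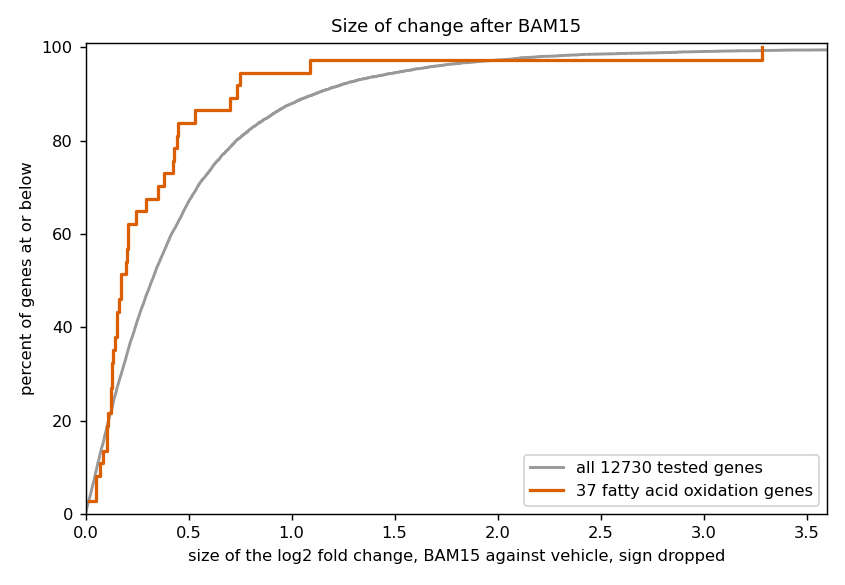
Cumulative share of genes (percent, y axis) against the size of the log2 fold change with its sign dropped (x axis), for the 37 genes and for all 12730 tested genes. The line of the 37 genes rises earlier, with medians of 0.17 and 0.32, and its last step is Acot2.

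The summed level of the pathway was a little lower after BAM15. It was 2897 to 3040 CPM in the vehicle libraries and 2627 to 2842 CPM in the BAM15 libraries. With Acsl3 and Acot2 left out, the ranges overlapped, at 2249 to 2364 CPM and 2104 to 2255 CPM.

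Among the acyl-CoA synthetases, which activate fatty acids for every later use, Acsl3 fell and the other 3 did not pass the test. Acsl3 (chr1:78657825-78707743) encodes a synthetase of the endoplasmic reticulum and lipid droplets, and it was the most highly counted of the 38 genes. Its normalized count ranged from 9400.3 through a median of 10768 to 11871.5 in vehicle libraries and from 5346 through 6320.3 to 7486 in BAM15 libraries. Every BAM15 library therefore lay below every vehicle library. The mean went from 10759 ± 801 to 6406 ± 828, a log2 fold change of −0.75 ± 0.083 (SE; adjusted p = 2.25e-06).

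The remaining synthetases gave small estimates. Acsl1, the main synthetase serving oxidation in muscle, had normalized counts of 654 ± 9.98 in vehicle and 609 ± 43.7 in BAM15 libraries, and the 95% interval of its log2 fold change ran from −0.23 to 0.02. Acsl4, which prefers arachidonic acid, was at log2 0.13 (adjusted p = 0.343), and Acsl5, found on mitochondria and the endoplasmic reticulum, also 0.13 (adjusted p = 0.232). The summed level of the 4 synthetases was 756 to 903 CPM in vehicle and 572 to 623 CPM in BAM15 libraries, most of it Acsl3.

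The thioesterases, which split acyl-CoA into free fatty acid and coenzyme A, held the largest change of the pathway. Acot2, the mitochondrial matrix thioesterase, had normalized counts of 305 to 359.8 in vehicle libraries, with a median of 339. In BAM15 libraries it reached 2714 at the lowest, 2875 at the median and 4891 at the highest. All BAM15 libraries lay far above the vehicle range, and libraries 5 and 6 were the highest. The mean rose from 337 ± 18.0 to 3284 ± 857, a 9.75-fold increase (log2 3.28 ± 0.143 SE, adjusted p = 1.40e-10).

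Acot1, the cytosolic neighbour with the near-identical coding sequence printed above, did not follow. It was counted at 23.8 to 40.4 in vehicle libraries and at 14.04 to 39.4 in BAM15 libraries, and its log2 fold change was −0.16 with an interval from −0.63 to 0.32. A rise like that of Acot2 lies outside this interval. Further along the same strand, Acot6 was at 120.2 ± 21.1 in vehicle and 120.2 ± 16.0 in BAM15 libraries (log2 0.00, adjusted p = 0.993). Upstream, Riox1, which encodes a ribosomal oxygenase, was slightly higher (log2 0.28, adjusted p = 0.00521), and beyond Acot6 the dynein gene Dnal1 was lower (log2 −0.60, adjusted p = 1.34e-05).

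Of the other thioesterases, Acot7 was lower and 3 did not pass the edgeR test, although DESeq2 called Acot13 higher. Acot7 (chr4:152178134-152271855), a cytosolic enzyme best known from neurons, went from 2053 ± 148 to 1506 ± 168 (log2 −0.45 ± 0.0759 SE, adjusted p = 0.000152), with no overlap between groups. Acot13, a small thioesterase associated with mitochondria, had 2980.0 ± 197 in vehicle and 3363 ± 124 in BAM15 libraries (log2 0.17, adjusted p = 0.0126). Over 24 alternatives its adjusted p ranged from 0.00478 with DESeq2 to 0.155 within library numbers 4 to 6. It passed under 7 of them, among which were those without BAM15 library 5 (0.00753) and without vehicle library 5 (0.00977). Peroxisomal Acot8 was at log2 0.12 and mitochondrial Acot9 at −0.09, neither past the test. The last 400 bases of Acot8 overlap an exon of Snx21 on the other strand over 243 bases, and 21.4% of the 50-base windows of the Acot9 end also occur in Acot10.

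**Figure D3:**
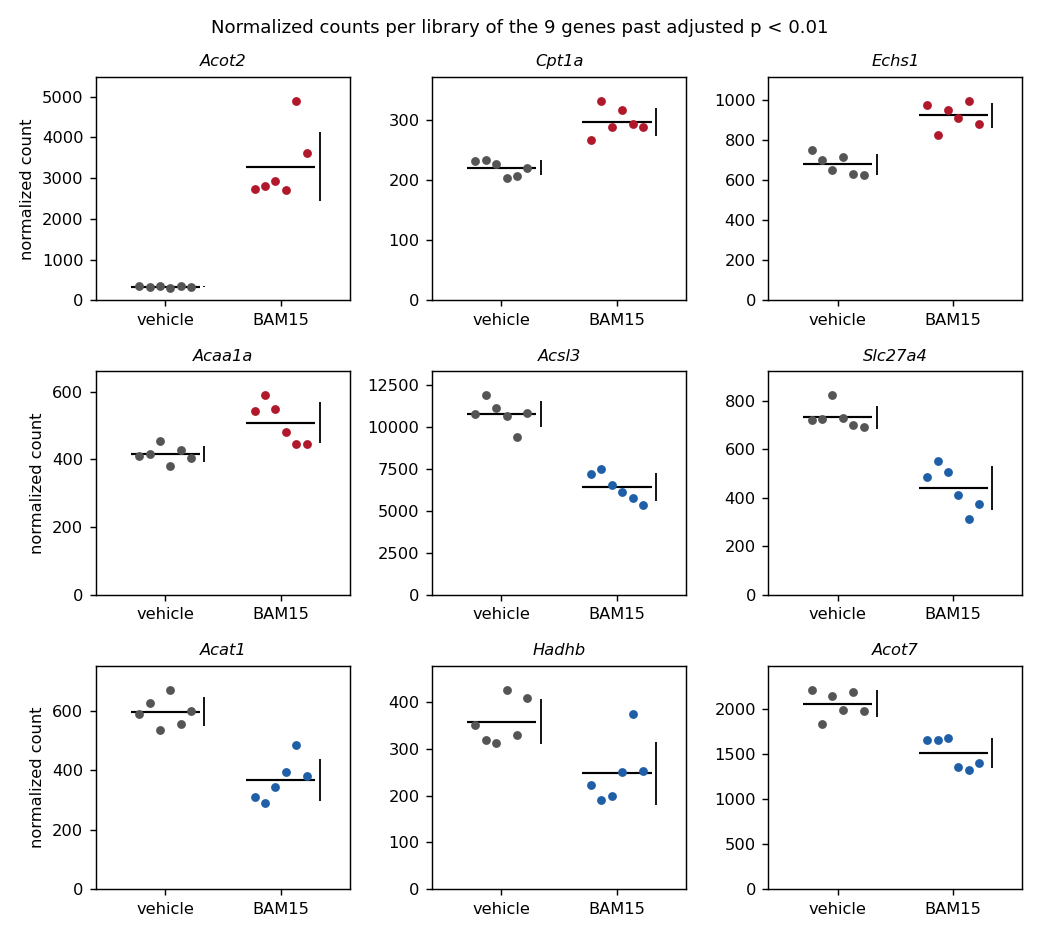
Normalized count of each library (points, in order of library number), with the group mean (line) and SD (bar beside it), for the 9 genes past an adjusted p below 0.01; each y axis starts at 0. The groups are apart for every gene but Acaa1a and Hadhb.

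In the carnitine shuttle, Cpt1a, a gene for the entry enzyme, rose modestly and the later enzymes did not pass the test. Cpt1b is not analysed here, so these values do not cover the whole entry step. Cpt1a (chr19:3322334-3385733) encodes the malonyl-CoA-sensitive enzyme of the outer membrane, in the form typical of liver. It was counted at 204 to 233 in vehicle libraries (median 224) and at 267 to 332 in BAM15 libraries (median 291), so that the groups were apart. The mean rose from 221 ± 12.6 to 297 ± 23.0, or 1.35-fold (log2 0.43 ± 0.0727 SE, adjusted p = 0.000145).

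Cpt2, which rebuilds acyl-CoA on the matrix side, was at 452 ± 42.4 in vehicle and 391 ± 20.7 in BAM15 libraries (log2 −0.21, adjusted p = 0.0255). Without vehicle library 6 it passed (log2 −0.26, adjusted p = 0.00460). Crat, the carnitine acetyltransferase that buffers acetyl-CoA, was at 623 ± 35.8 and 526 ± 96.0 (log2 −0.24, adjusted p = 0.0618). The carnitine-acylcarnitine carrier Slc25a20 is counted with the wider gene list described further on.

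None of the 5 acyl-CoA dehydrogenases, which carry out the first oxidation of each turn for different chain lengths, passed the edgeR test, although all 5 had a log2 fold change below 0. At an unadjusted p below 0.05, 4 of the 5 were lower, and at an adjusted p below 0.01 DESeq2 called 1 (Acadvl) and limma-voom 0. Acadl, the long-chain enzyme and the second most counted gene of the 38, had 5677 ± 299 in vehicle and 5108 ± 332 in BAM15 libraries (log2 −0.15, adjusted p = 0.0317), and without BAM15 library 5 it passed (adjusted p = 0.00985). Acadm, the medium-chain enzyme, went from 754 ± 127 to 589 ± 90.7 (log2 −0.35, adjusted p = 0.0213). For very-long-chain Acadvl the log2 fold change was −0.21 (adjusted p = 0.0172), for short-chain Acads −0.10 (adjusted p = 0.393) and for Acad9, which also helps to assemble complex I, −0.42 (adjusted p = 0.0397). Acad9 was low, at 82.6 ± 18.1 in vehicle and 61.8 ± 10.0 in BAM15 libraries, and passed without vehicle library 4 (log2 −0.53, adjusted p = 0.00582). The Acadvl end lies over its whole last 400 bases opposite exons of Dvl2, and whether counting used strand is not given in the sources used here. The summed level of the dehydrogenases was 547 to 598 CPM in vehicle and 475 to 520 CPM in BAM15 libraries, without overlap.

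Of the 7 hydratases, hydroxyacyl dehydrogenases and thiolases, 2 were higher, 2 lower and 3 not past the test. The share of 28.6% in each direction lay near the 22.0% higher and 20.3% lower of all tested genes. Echs1 (chr7:140105710-140116476), the short-chain enoyl-CoA hydratase whose promoter is printed above, rose from 677 ± 51.3 to 921 ± 63.8 (log2 0.44 ± 0.0661 SE, adjusted p = 4.35e-05). Its BAM15 libraries spanned 822 to 992 and all exceeded the highest vehicle library, 748.

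Acat1 (chr9:53580522-53610382), the mitochondrial acetoacetyl-CoA thiolase of ketone and isoleucine breakdown, fell. Vehicle libraries were counted at 537 to 673 (median 596) and BAM15 libraries at 289.5 to 487 (median 362), again without overlap. The mean went from 598 ± 48.7 to 368 ± 71.3 (log2 −0.70 ± 0.111 SE, adjusted p = 7.89e-05).

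Hadha and Hadhb encode the α and β subunits of the mitochondrial trifunctional protein and lie next to each other on opposite strands of chromosome 5 (chr5:30118304-30155162 and chr5:30155248-30184593). Hadhb was counted at 313 to 428 in vehicle libraries (median 341) and at 190.1 to 375 in BAM15 libraries (median 237). All but 1 BAM15 library lay below the whole vehicle range, and library 5, at 375, lay within it. The mean went from 358 ± 48.4 to 248 ± 67.1 (log2 −0.53 ± 0.149 SE, adjusted p = 0.00742). The call was lost without BAM15 library 1, 2, 3, 4 or 6 or without vehicle library 1, 4, 5 or 6, each left out alone (adjusted p of 0.0104 to 0.0194). Hadha had far more reads counted, at 3664 ± 221 in vehicle and 3248 ± 613 in BAM15 libraries. It did not pass (log2 −0.17, adjusted p = 0.183). The last 400 bases of Hadha overlap exons of Garem2 on the other strand over 75 bases. Whether the subunits differed from each other in their change was not tested.

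Acaa1a, the peroxisomal 3-ketoacyl-CoA thiolase, was higher at 509 ± 59.9 against 415 ± 24.3 (log2 0.29 ± 0.0801 SE, adjusted p = 0.00604). Of the 50-base windows at its 3′ end, 36.2% also occur in Acaa1b, so reads of the pair may have been split. The call was lost without BAM15 library 1, 2 or 3 or without vehicle library 1, 2, 4, 5 or 6, each left out alone (adjusted p of 0.0108 to 0.0166). Its mitochondrial counterpart Acaa2 was at log2 −0.20 (adjusted p = 0.0412), and the medium- and short-chain hydroxyacyl dehydrogenase Hadh was at 0.16 with BAM15 libraries from 838 to 1841 (adjusted p = 0.443).

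The auxiliary enzymes that prepare unsaturated chains, and the electron transfer flavoprotein, gave no call with edgeR, DESeq2 or limma-voom. At an unadjusted p below 0.05, 1 auxiliary enzyme was higher and 1 lower, and 0 of the 3 flavoprotein genes passed. Eci1, a mitochondrial enoyl-CoA isomerase, was at 407 ± 21.03 in vehicle and 531 ± 120.1 in BAM15 libraries (log2 0.38, adjusted p = 0.0156), and passed without BAM15 library 2 (adjusted p = 0.00145). Ech1, Eci2 and the dienoyl-CoA reductase Decr1 had log2 fold changes of 0.11, 0.07 and −0.14. Etfa and Etfb, the subunits of the flavoprotein, were at 0.02 and −0.20, and Etfdh, which hands the electrons to ubiquinone, at 0.12. The interval of Etfa ran from −0.39 to 0.43 and that of Etfdh from −0.28 to 0.52, so these data do not settle a change of either sign. Without BAM15 library 5 the signs of Etfa and Etfdh turned, at −0.17 and −0.06. The sign of Etfa also turned without BAM15 library 6 or without vehicle library 1, 3 or 5, each left out alone. Of the Etfb end, 34.2% of the 50-base windows are shared with the overlapping gene model Gm45233.

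Uptake and binding genes gave 1 lower call. Slc27a4 (chr2:29802634-29817522), the fatty acid transport protein FATP4, was counted at 691 to 823 in vehicle libraries (median 723) and at 311 to 553 in BAM15 libraries (median 449). No BAM15 library reached the lowest vehicle library. The mean fell from 732 ± 47.4 to 440.0 ± 90.4 (log2 −0.73 ± 0.116 SE, adjusted p = 7.80e-05). Fabp3, the fatty acid binding protein of muscle and heart, was at 1257 ± 82.7 and 1146 ± 184 (log2 −0.13, adjusted p = 0.253).

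Slc27a1, which encodes FATP1, the transporter best known in muscle, was the least counted gene tested in vehicle libraries. Over both groups Acot1 was lower. Its values ran from 10.3 to 35.3 in vehicle libraries and from 20.5 to 95.8 in BAM15 libraries, overlapping between groups. The estimated change was 2.13-fold, with a log2 interval of 0.20 to 1.98 (adjusted p = 0.0388), and did not pass the threshold. Of the windows at its 3′ end, 13.7% also occur in other genes.

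The regulators gave no call with edgeR, DESeq2 or limma-voom, nor did either tested regulator reach an unadjusted p below 0.05. Ppard was counted at 227 to 299 in vehicle libraries (median 276) and at 231 to 292 in BAM15 libraries (median 262), with a log2 interval of −0.23 to 0.12 (adjusted p = 0.617). Ppara had only 7.92 to 20.1 normalized counts in vehicle libraries (median 13.4) and 4.67 to 11.9 in BAM15 libraries (median 7.52), under the filter for testing. With no filter its log2 fold change was −0.79 (adjusted p = 0.0386). Mlycd, the decarboxylase that removes the Cpt1 inhibitor malonyl-CoA, was at log2 −0.05 (adjusted p = 0.684).

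The BAM15 libraries were less alike than the vehicle libraries, and the pathway shared in this. Libraries numbered 4 to 6 are set against 1 to 3 because earlier results of these data showed those of BAM15 apart. The labels name no batch behind the numbers. Since the split was taken from these same libraries, the counts and tests on it describe it and are no independent evidence for it. For 9 of the 37 genes (24.3%) BAM15 libraries 4 to 6 all lay above 1 to 3, and for 15 (40.5%) all lay below. Over all tested genes the shares were 22.2% and 27.7%. Among vehicle libraries the same split gave 1 gene above and 2 below, where all genes gave 6.60% and 7.60%.

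The genes on either side of this split did not follow the steps of the pathway. Higher in BAM15 libraries 4 to 6 were Slc27a1, Acsl4, Acsl5, Acadl, Hadhb, Hadh, Acat1, Eci1 and Etfa. Lower were, among others, Slc27a4, Fabp3, Acsl3, Acot7, Crat, Acads, Hadha and Etfb, so that the partners Hadha and Hadhb, and Etfa and Etfb, lay on opposite sides. Etfa was counted at 233 to 309 in BAM15 libraries 1 to 3 and at 375 to 586 in libraries 4 to 6. Etfb ran the other way, from 1401 to 1516 in the former and from 1031 to 1118 in the latter. In an edgeR fit to numbers 1 to 3 alone, Etfa was lower after BAM15 (log2 −0.40, adjusted p = 0.00873). It did not pass for numbers 1 to 3 in the edgeR fit of all libraries with the numbers split (adjusted p = 0.0917). Within numbers 4 to 6 alone Etfb was lower (log2 −0.41, adjusted p = 0.00105), and the split fit also gave this (adjusted p = 0.000197). The main comparison, without the split, called neither Etfa nor Etfb. For numbers 4 to 6 in the split fit, Slc27a1, Hadh and Eci1 also passed an adjusted p below 0.01 as higher. Fabp3, Crat, Acads, Acadvl and Hadha passed as lower. Acadl passed as lower for numbers 1 to 3 (log2 −0.24, adjusted p = 0.00426). None of these genes was called in the main comparison.

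No gene of the pathway passed an adjusted p below 0.01 in edgeR's test of whether the BAM15 effect differed between numbers 1 to 3 and 4 to 6, and 0 (0%) of the 12730 genes did. At an unadjusted p below 0.05 there were 12 of the 37 genes and 26.0% of all genes. At an adjusted p below 0.05, 2.66% of all genes passed. The nearest here was Fabp3, with a difference of −0.43 ± 0.115 (SE) on the log2 scale (adjusted p = 0.0543). All 9 called genes had the same sign in both sets of numbers. The calls were made on these same libraries, so this is no independent check of them.

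**Figure D4:**
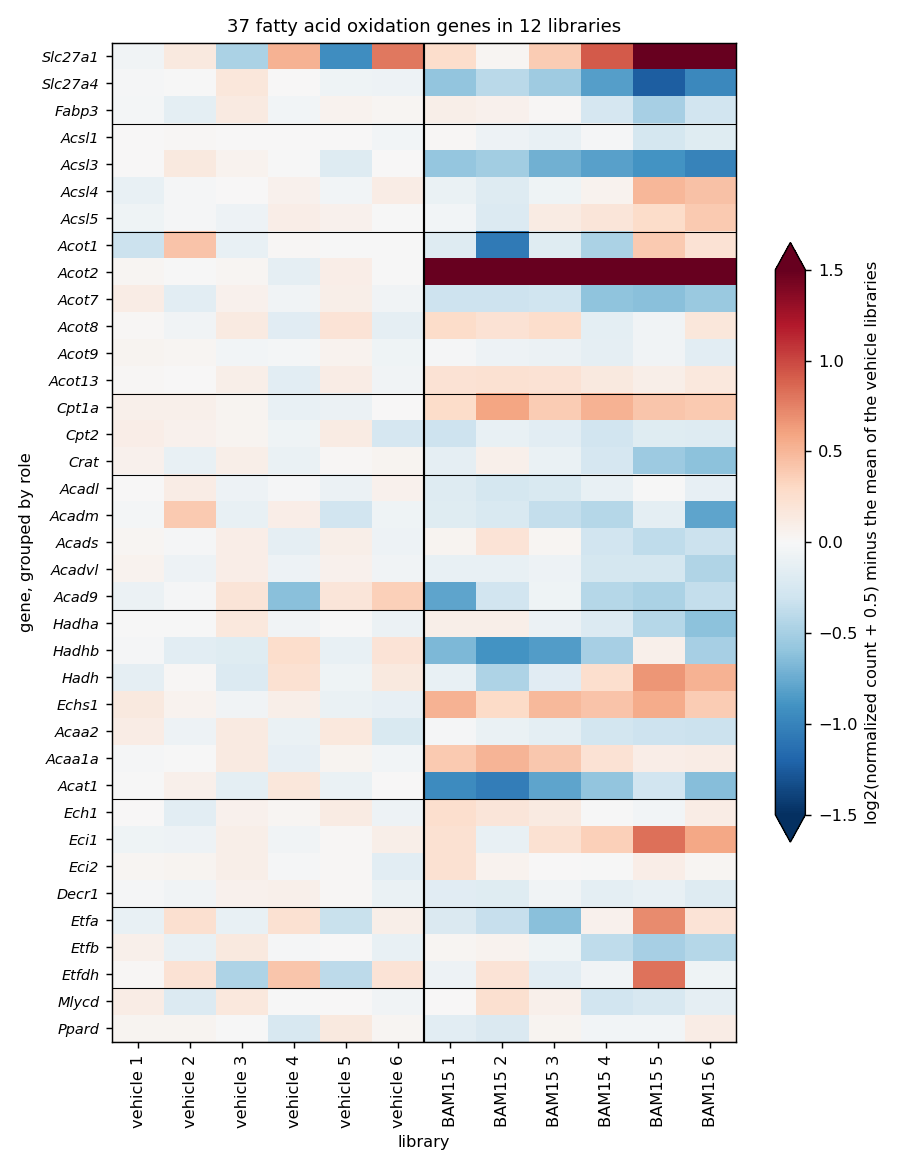
Each of the 37 genes (rows, grouped by role) in each of the 12 libraries (columns), coloured by log2(normalized count + 0.5) minus its mean over the vehicle libraries; colours saturate at 1.5. Acot2 is saturated in all 6 BAM15 libraries, and rows such as Etfa, Hadh and Slc27a4 shift between BAM15 libraries 1 to 3 and 4 to 6.

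Genes around the pathway held a few large changes. Of 30 tested genes in a wider list of fatty acid and acyl-CoA proteins, 2 were higher (6.67%, against 22.0% of all tested genes) and 7 lower (23.3%, against 20.3%), with a median log2 fold change of −0.07. Those past 2-fold were Them4, a mitochondrial thioesterase gene (265 ± 13.0 to 837 ± 64.5, log2 1.66, adjusted p = 2.50e-11), and Acsbg1, a very-long-chain synthetase gene (86.9 ± 12.1 to 262 ± 14.7, log2 1.59, adjusted p = 3.39e-09), which rose. Slc27a3, a relative of FATP1 (99.2 ± 14.6 to 28.7 ± 7.17, log2 −1.79, adjusted p = 4.15e-07), and Fabp5, a fatty acid binding protein (402 ± 64.1 to 178 ± 33.8, log2 −1.18, adjusted p = 3.96e-06), fell.

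Peroxisomal oxidation gave 3 higher and 0 lower of 14 genes tested by edgeR (median log2 0.05), and the 21.4% higher lay near the 22.0% of all tested genes. At an unadjusted p below 0.05, 4 were lower, and DESeq2 and limma-voom each called 1 lower. Acox2, the oxidase of branched chains and bile acid intermediates, rose from 13.3 ± 5.57 to 119 ± 12.7 (log2 3.17, adjusted p = 4.40e-09). Among 15 tested PPAR partners, coactivators and target genes, 6 were higher (40%, against 22.0% of all tested genes) and 1 lower (6.67%, against 20.3%), and their median log2 fold change was 0.31. The higher genes were Pparg, Rxrb, Pprc1 and Esrrg, which encode receptors or coactivators, and the target genes Angptl4 and Plin2. The lower gene was Ppargc1b. The target genes Pdk4 and Ucp3 did not pass the edgeR test (log2 0.69 and −0.42, adjusted p = 0.0712 and 0.0818). Plin2, which coats lipid droplets, rose from 1524 ± 71.2 to 4374 ± 423 (log2 1.52, adjusted p = 7.29e-11). Pparg rose from 12.7 ± 5.11 to 82.3 ± 60.9 (log2 2.68, adjusted p = 0.000150) and the orphan receptor gene Esrrg from 5.10 ± 2.70 to 53.7 ± 7.45 (log2 3.37, adjusted p = 3.47e-08), each from a low level.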

How the data were processed

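RNA of C2C12 myotubes treated with BAM15 or vehicle was sequenced from 6 libraries per condition. The authors made 3′ QuantSeq libraries, aligned and counted reads with BlueBee software and deposited whole-number counts per Ensembl gene, without normalization. The authors also deposited a normalized signal table, made with DESeq2 (version 1.22.2 in the submitters' processing notes, which name GRCm38 and mm10), and here it gave gene symbols only. The aligner, the annotation and the strand of counting are not given in the sources used here. A further 11 columns of the tables belong to other samples and were not used. Columns were matched to samples by the sample descriptions. No pair of libraries agreed within sampling noise.

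The 39 genes, their roles, the other lists and the tests were chosen with earlier results of these data known. All 39 were to be named, with the libraries described for genes past an adjusted p below 0.01 and 1.4-fold and for Cpt1a, Ppara and Ppard. Of other lists only genes past 2-fold were to be named, at most 6 per list. Some further genes of the PPAR list are named as well. Counts were fitted in R 4.3.3 with edgeR 4.0.16 (filterByExpr, which removed 2383 genes, TMM factors, robust quasi-likelihood test, condition as the only term) over 12730 genes, with Benjamini-Hochberg adjustment. The standard error was the size of the log2 fold change over the square root of F. The self-made scripts were tested on simulated data. Alternatives used DESeq2 1.42.0, limma-voom (limma 3.58.1), other scaling and filters, a block or term for library number, library numbers 1 to 3 or 4 to 6 alone, and each library left out. Positions and 3′ ends came from GENCODE M21, which held 15080 of the 15113 identifiers, and promoters from RefSeq. Sequences were compared with Biopython 1.88 and figures drawn with matplotlib 3.10.9 in Python 3.11.15.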

Additional observations from a re-analysis of the deposited data

Results flagged for a closer look

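In 5 of 76 sets of 6 libraries an end value lay far from the rest, its gap to the nearest other library as a share of the whole range, being over Dixon's 95% limit for 6 values, where chance gives about 1 in 20. Slc27a4 was at 823 normalized counts in vehicle library 3, and the next highest vehicle library was at 731. Hadha was at 4088 in the same library, with the next at 3641. Acsl1 was at 635 in vehicle library 6, below the next lowest at 655. In BAM15 library 5, Hadhb was at 375 and the next highest library at 252, and Etfdh was at 308 and the next at 203. Library 5 was also the highest of the BAM15 libraries for Acot2. What sets these libraries apart was not tested.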

How the results depend on the processing

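Of the 9 calls, 7 (Acot2, Acsl3, Slc27a4, Acat1, Acot7, Echs1 and Cpt1a) held under all 24 alternatives; those of Hadhb and Acaa1a were each lost in 10. The lower count of the 37 genes, 5, became 11 with library size only, 8 within numbers 4 to 6 and 12 at an adjusted p below 0.05, where the higher count, 4, became 7. A 1.5-fold threshold left 4 genes in place of 1. The median, −0.10, was −0.17 with library size only. Without BAM15 libraries 5 and 6, chosen after seeing the data, 5 were higher and 6 lower. Of the wider fatty acid list, 4 were higher without those libraries and 4 lower within numbers 4 to 6. The peroxisomal lower count, 0, was 1 with relative log expression or upper-quartile factors, DESeq2, limma-voom, no filter, a term for numbers 1 to 3 against 4 to 6 or within 4 to 6, 2 with library size only, 3 within 1 to 3 and 0 to 2 with single libraries left out. The PPAR lower count, 1, was 0 within numbers 1 to 3 and without BAM15 libraries 5 and 6, and 0 to 1 with single libraries left out.

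Signs turned only for genes without a call. Within numbers 1 to 3, Fabp3 was 0.061, Acsl4 −0.077, Acads 0.053, Hadh −0.14, Mlycd 0.073 and Etfa −0.40. Within 4 to 6, Acot1 was 0.085, Ech1 −0.013 and Ppard 0.013. Without BAM15 libraries 5 and 6, Acsl4 was −0.074, Acads 0.0087, Hadh −0.11, Etfa −0.27, Etfdh −0.047 and Mlycd 0.015. Etfa was −0.0019 with upper-quartile factors, −0.030 with library size only, −0.033 with limma-voom and −0.021 with the term for numbers, and −0.17 to 0.12 with single libraries left out, where Etfdh ranged from −0.056 to 0.21. The cause was not tested.

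With the library number as a replicate block, 4 genes were higher and 5 lower and no call among the 37 genes was changed; Etfa was −0.033. Same-numbered libraries correlated at −0.083 to 0.381, and 2 of 6 BAM15 libraries correlated best with their own number, so the numbers were not taken as pairs. Depth limits Ppara, Slc27a1 and Acot1, each with under 100 normalized counts in every library.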
